A study of Mus musculus with 2 samples.

Results

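The barcodes described here are the conventional dendritic cells of Hepa1-6 tumours, divided into the type 1 subset (cDC1), the type 2 subset (cDC2) and mature, migratory cells. They number 118 of the 15267 barcodes kept from 2 droplet libraries, in which 17369 barcodes were deposited. Hepa1-6 is an established mouse hepatoma line, and tumours grown from it were taken on day 12. One library came from control tumours and the other from tumours of animals given CD147-LYTACs at 40 mg/kg every 3 days for 4 doses. A LYTAC is a molecule that binds a surface or secreted protein and a receptor that carries both to the lysosome, where the bound protein is degraded. The target, CD147 or basigin, is the product of Bsg and accompanies lactate transporters to the cell membrane. The labels name both the peritoneum and a vein as the route, and they give neither the control's injection nor the number of tumours pooled in a library. Cells were sorted into CD45- and CD45+ fractions and put back together so that 75% were CD45+, then run on the 10x Chromium platform. With 1 library in each group no difference between groups can be tested. The 95% intervals below are exact, cover counting error only, and treat the cells of a library as what was counted, not as replicates.

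Conventional dendritic cells take up antigen, cut it into peptides and present them to T cells. The cDC1 subset, marked by the chemokine receptor Xcr1 and the dead-cell receptor Clec9a, is known for presenting antigen of dying cells to CD8 T cells, and the cDC2 subset for presentation to CD4 T cells. On maturation both switch on the chemokine receptor Ccr7, which guides them to lymph nodes, together with costimulatory and inhibitory ligands. Dendritic cells in tumours also respond to interferons, among other ways by secreting Cxcl9 and Cxcl10, which attract activated T cells.

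Members were chosen by transcript counts. A kept barcode had 500 or more UMIs (unique molecular identifiers, each standing for 1 captured transcript) over 300 or more genes, and mitochondrial transcripts made up no more than 15% of them. A dendritic barcode had at least 20 UMIs over the class II genes H2-Aa, H2-Ab1 and H2-Eb1, none of Cd3e, Cd3d, Cd3g or Cd79a, at most 2 of the macrophage genes C1qa, C1qb and C1qc, and at most 3 of the keratins Krt8 and Krt18. Barcodes with at least 2 UMIs of Xcr1 and Clec9a were called cDC1. Of the rest, those with at least 4 UMIs of the bundling protein Fscn1 and the chemokine Ccl22 were called mature, and then those with at least 2 UMIs of the receptors Flt3, Cd209a and Clec10a were called cDC2. Values of these genes chose the members and are given only as a description. Another 93 control and 87 treated barcodes passed the exclusions and the class II limit but met no subset rule, and they are not among the 118.

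The control library held 143495332 UMIs over 8150 deposited barcodes and the treated library 149812326 over 9219. Dendritic barcodes had a median of 14259 UMIs in the control and 9672 in the treated library, so they were read less deeply in the treated library. The 2 libraries shared 24 barcode sequences, 0 of them dendritic. Summed markers of T cells and macrophages were far under the level of those cells. The 12 T cell markers came to between 27.0 and 34.4 CPM (UMIs relative to the total of the barcodes summed) in the control subsets and 9.62 to 102 CPM in the treated ones, against 4695 and 4728 CPM in T cell barcodes. The 14 macrophage markers came to 85.9 to 226 and 127 to 256 CPM, against 10376 and 8034 CPM in macrophage barcodes. They include C1qa, C1qb and C1qc, which the gate limited to 2 UMIs, while macrophage barcodes were chosen for at least 3. Part of this gap was therefore set by the rules. The defining NK cell receptor Ncr1, the B cell gene Pax5, the macrophage receptor Trem2, the neutrophil genes Retnlg and Mmp9, the hepatoma transcripts Apoa1 and Ttr and the collagen Col1a1 had 0 UMIs in all 118 barcodes. Other members of these lists were present. The 9 NK cell markers came to 105 to 194 CPM in the control and 52.8 to 168 CPM in the treated subsets. The 9 B cell markers came to 51 to 124 and 28.1 to 298 CPM. In cDC1 the B cell sum was 62.3 CPM in the control and 298 CPM in the treated library. By the rule below 1 B cell marker was higher in treated cDC1, also without its top barcode, beside 5.68% and 1.56% of all genes tested. Other marker lists stood higher. The 10 plasmacytoid dendritic cell markers came to 452 to 1213 CPM in the control and 661 to 2254 CPM in the treated subsets, the 10 monocyte markers to 724 to 1698 and 542 to 1517 CPM, and the 12 neutrophil markers to 236 to 1026 and 308 to 1275 CPM. At least 1 UMI of the plasmacytoid lectin Siglech stood in 1 cDC1 and 1 cDC2 barcode of the control and in 1 cDC1 and 3 cDC2 barcodes of the treated library, and the plasmacytoid genes of cDC2 are given without these barcodes below. In cDC1 the plasmacytoid markers summed to 582 and 1309 CPM, with 3 higher by the rule below, beside 5.68% of all genes tested. Without the Siglech barcodes they summed to 297 and 276 CPM, with 0 higher or lower. In the treated library 2 mature barcodes carried T cell receptor transcripts and 1 cDC2 barcode carried neutrophil transcripts.

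The gates were met with room to spare on class II genes and closely on the subset genes. The class II sum per barcode ran from 30 to 984 UMIs in control cDC1, with a median of 267, and from 20 to 686 in control cDC2, with a median of 138.5. Only 1 control and 2 treated barcodes lay at 20 to 29 class II UMIs, while 7 and 2 with 10 to 19 met every other rule and stayed out. The subsets overlapped by their own markers: 16 of 25 control and 4 of 7 treated cDC1 barcodes also met the cDC2 rule, and 7 of 24 and 12 of 26 mature barcodes did so. Of the cDC1 barcodes, 6 and 1 also met the mature rule. Near the thresholds the genes that the gates did not use gave graded values. The summed level of 10 other cDC1 genes was 854 CPM in the 19 control barcodes with 1 UMI of the cDC1 gate, 1284 CPM in the 8 with 2 or 3, and 4558 CPM in the 17 with 4 or more. In the treated library it was 1174 CPM in 10, 1451 CPM in 4 and 3382 CPM in 3 barcodes of the same steps. For 10 other maturation genes it was 1270 CPM in the 22 control barcodes just outside the mature gate, 2375 CPM in the 9 with 4 to 7 UMIs, and 6712 CPM in the 15 above, and in the treated library 1554 CPM in 7, 2529 CPM in 6 and 8045 CPM in 20 barcodes. For cDC2 the 10 other genes gave 2688, 3657 and 2231 CPM in the control and 1826, 2356 and 4584 CPM in the treated library for sums of 1, 2 and at least 3 UMIs. In the control the cDC2 rule therefore separated its barcodes least from their neighbours, with values out of order. In the treated library the values rose with each step for every subset.

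The mix of subsets differed between the libraries. The control library had 25 cDC1, 24 mature and 14 cDC2 barcodes, and the treated library had 7, 26 and 22. The cDC1 share of dendritic barcodes was 39.7% (27.6 to 52.8%) in the control and 12.7% (5.27 to 24.5%) in the treated library. With the gates as given above these intervals do not overlap. The mature share was 38.1% (26.2 to 51.2%) and 47.3% (33.7 to 61.2%), and the cDC2 share 22.2% (12.7 to 34.5%) and 40.0% (27.0 to 54.1%). Both of these pairs of intervals overlap.

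Set against all barcodes with the leukocyte gene Ptprc and few keratin UMIs, cDC1 were 0.533% (0.345 to 0.785%) of immune barcodes in the control and 0.138% (0.0556 to 0.285%) in the treated library. Mature barcodes were 0.490% and 0.454%, and cDC2 barcodes 0.298% and 0.415%. Together they were 62 of 4693 (1.32%) and 51 of 5062 (1.01%). Neutrophil barcodes, which enlarge the denominator, numbered 74 and 365. Without them the cDC1 share was 0.540% and 0.147%. Over every other gate setting tried, the cDC1 share of dendritic barcodes in the treated library was between 0.203 and 0.364 times that of the control, beside 0.321 as given above. With every barcode thinned to 4000 UMIs cDC1 were 11 of 39 control and 3 of 37 treated dendritic barcodes. With the mature rule first they were 19 of 63 and 6 of 55. The lack of overlap between intervals is stated for the main setting only. The mature ratio of 1.24 became 0.943 when the cDC2 rule was applied before the mature rule. Shares also depend on the sort and on the dissociation, and fewer cDC1 in the tumour cannot be told apart here from fewer recovered.

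**Figure D1:**
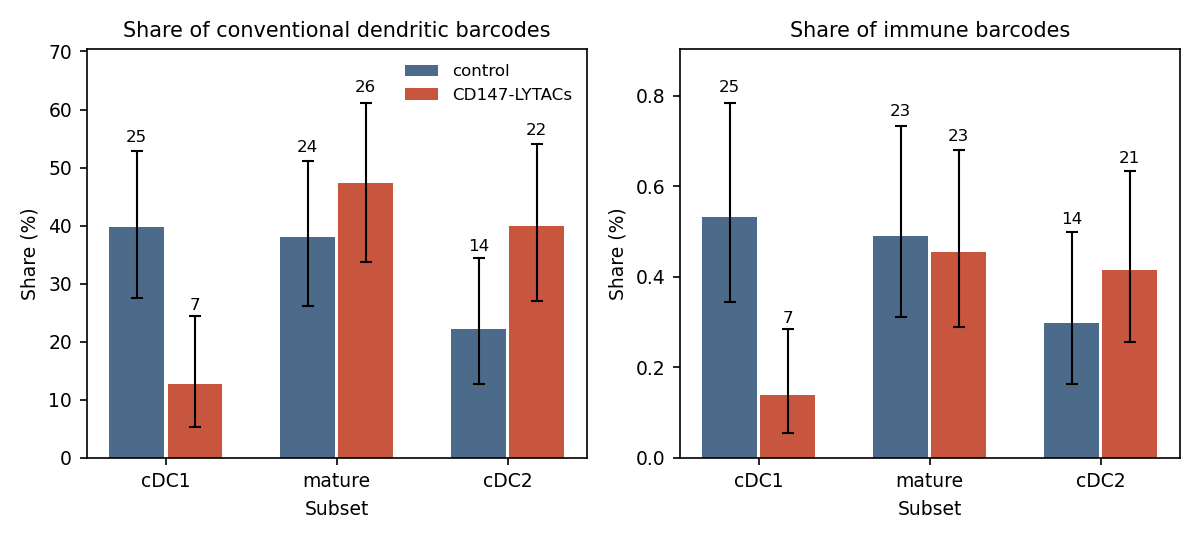
Share of conventional dendritic barcodes (percent, vertical axis) in each subset for the control and the treated library, with exact 95% binomial intervals. The cDC1 share was 39.7% in the control and 12.7% in the treated library, and cDC2 was 22.2% and 40.0%.

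Genes were also compared between the subsets within each library. Past the fold here means at least 2-fold from the mean of the other subsets, with an interval excluding 0, in both libraries. By this rule 44 of 3047 genes (1.44%) were higher in cDC1, 112 of 3070 (3.65%) in mature and 49 of 3053 (1.6%) in cDC2 barcodes. Lower were 82 (2.69%), 117 (3.81%) and 84 (2.75%). Since all genes were measured in the cells that the gates chose, these differences describe the subsets and test nothing. The rule also asks for the same direction in both libraries, so the agreement of the libraries is part of the choice. Of 19 cDC1 identity genes in the files 7 were higher in cDC1, of 30 maturation genes 13 were higher in mature barcodes, and of 20 cDC2 identity genes 4 were higher in cDC2. The counts in this paragraph include the gate genes, which the choice of members itself set apart. Without gate genes the 3 lists hold 17, 28 and 17 genes.

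The adhesion molecule Cadm1 was at 950 CPM in control cDC1 against 20.2 CPM in the other subsets, and at 327 against 59.5 CPM in the treated library. The lysosomal enzyme Ppt1 was at 604 against 55.2 CPM in the control and 414 against 56.0 CPM in the treated library. Wdfy4, which cDC1 need to present cell-associated antigen, was at 943 against 170 CPM and at 462 against 94.7 CPM. The lipid hydrolase Naaa was at 735 against 156 CPM and at 712 against 90.0 CPM.

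In mature barcodes Ccr7 stood at 2205 against 427 CPM in the control and at 2769 against 618 CPM in the treated library. The chemokine Ccl17, a ligand of Ccr4, was at 1311 against 66.7 CPM and at 770 against 66.6 CPM. The amino acid oxidase Il4i1 was at 170 against 8.09 CPM and at 429 against 6.62 CPM, and the fatty acid carrier Fabp5 at 875 against 63.6 CPM and at 1720 against 130 CPM. The calcium channel subunit Cacnb3 was at 83.5 and 204 CPM in mature barcodes and had 0 UMIs in the other subsets of both libraries. Fscn1, a gate gene, was detected in 5 of 24 control and 11 of 26 treated mature barcodes, and Ccl22 in 24 of 24 and 25 of 26, so Ccl22 brought most members through the mature gate. In cDC2 the early response factor Egr1 was at 943 against 103 CPM and at 499 against 41.7 CPM. The lysozyme gene Lyz2 was at 1536 against 330 CPM and at 640 against 168 CPM, and the surface protein gene Ms4a4c at 232 against 63.2 CPM and at 278 against 52.3 CPM. Ly6c2 was at 108 against 19.6 CPM and at 260 against 75.7 CPM, and like Ms4a4c it is on the monocyte marker list. Of 10 monocyte markers 2, and of 10 plasmacytoid markers 3, were higher in cDC2 in both libraries, beside 1.6% of all genes. Whether some cDC2 barcodes belong to these other lineages was not tested. Zbtb46, a transcription factor of the conventional dendritic lineage that no gate used, was present at 105 to 140 CPM in the 3 control subsets and at 159 to 215 CPM in the treated ones. It was at 18.5 and 8.89 CPM in macrophage barcodes. Lamp3, often used to mark mature dendritic cells in human tissue, had 0 UMIs in every subset.

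**Figure D2:**
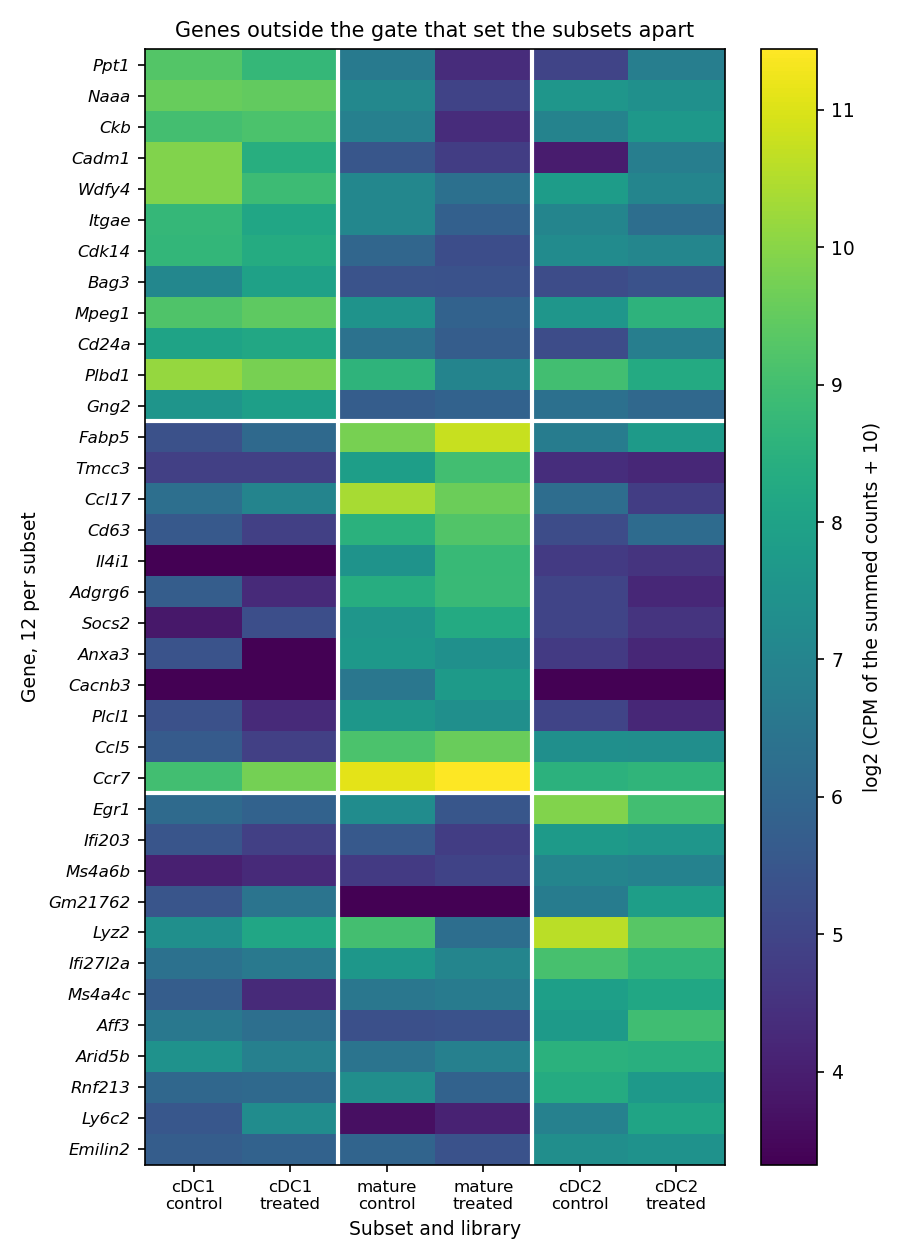
Heat map of log2(CPM + 10) for genes that the gates did not use and that were past the fold in both libraries (rows), in each subset of each library (columns). By the rule that chose them, the cDC1, mature and cDC2 gene groups are each brightest in their own subset in both libraries, for example Cadm1 at 950 and 327 CPM in cDC1.

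Between libraries, UMIs were summed over the barcodes of a subset and compared as CPM of the sum. A gene counted as past the fold when it was at least 2-fold apart with an interval excluding 0, had at least 30 UMIs over both libraries and at least 50 CPM in the higher one. In mature barcodes 132 of 3251 genes (4.06%) were higher and 221 (6.8%) lower in the treated library. In cDC2 178 of 2447 genes (7.27%) were higher and 111 (4.54%) lower, and in cDC1 178 of 3136 (5.68%) were higher and 187 (5.96%) lower. A few cells carry many of these calls. When the barcode with most UMIs of a gene was left out of each library, 106 higher (3.26%) and 174 lower calls (5.35%) stayed in mature barcodes. In cDC2 139 (5.68%) and 80 (3.27%) stayed, and in cDC1 49 (1.56%) and 131 (4.18%). Genes named below stayed past the fold without that barcode unless stated.

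The clearest gene groups in mature barcodes were those of the interferon response, which were lower in the treated library. Of 33 type I interferon response genes in the files 13 reached the count minimum, 8 of them were lower and 0 higher, against 6.8% of all genes tested that were lower. The 20 members with at least 10 UMIs had a median log2 ratio of -1.03, treated over control, beside -0.03 over all genes. Of 28 interferon-gamma response genes 16 reached the minimum, 8 were lower and 0 higher, and the median over 24 members was -0.89. That median shrank to -0.11 when every cell was thinned to 4000 UMIs, which left 13 members, while the type I median stayed between -0.96 and -1.31 under the alternatives.

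Cxcl9 (ENSMUSG00000029417), a ligand of the chemokine receptor Cxcr3 on T cells, was at 840 CPM (749 to 939) in control mature barcodes and at 144 CPM (104 to 196) in treated ones. It was detected in 21 of 24 control and 10 of 26 treated barcodes, with a control median of 307 CPM per barcode and a highest value of 5761, and a treated median of 0 and a highest value of 2161. The log2 ratio was -2.54 (-3.05 to -2.07), so Cxcl9 was lower and detected in fewer of the treated barcodes, while the ranges of single barcodes overlapped. With every barcode thinned to 4000 UMIs, which left out 1 shallower treated mature barcode, Cxcl9 was detected in 16 of 24 and 5 of 25. In thinned T cell barcodes, which should lack it, the shares were 1.65% and 1.49%, at median depths before thinning of 6567 and 6677 UMIs. Cxcl10, which binds the same receptor, was at 275 CPM in 10 of 24 control barcodes and at 38.7 CPM in the treated library, where all 11 UMIs came from 1 barcode.

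Isg15 (ENSMUSG00000035692), a ubiquitin-like protein induced by interferon, was at 730 CPM (645 to 822) in the control and at 359 CPM (293 to 436) in the treated library. It was found in 21 of 24 and 20 of 26 barcodes, and after thinning in 19 of 24 and 13 of 25, beside 18.9% and 20.5% of T cell barcodes. Its log2 ratio of -1.02 sat at the threshold and was -0.89 with a mean over cells, -0.97 without the 2 barcodes with T cell receptor transcripts and -0.98 after thinning. Oasl1, an inhibitor of Irf7 translation, was at 549 and 215 CPM (log2 ratio -1.36, -1.79 to -0.94), in 20 of 24 and 12 of 26 barcodes. Ifih1, the cytosolic RNA sensor MDA5, was at 267 and 98.5 CPM (-1.44, -2.10 to -0.82). Rarer transcripts pointed the same way with wider intervals. Ifit1, which binds foreign RNA caps, was at 70.0 and 14.1 CPM (-2.31, -4.29 to -0.79), and Rsad2, the antiviral enzyme viperin, at 67.3 and 24.6 CPM (-1.45, -2.90 to -0.20). Ifit2 was at 80.8 and 10.6 CPM, a ratio of -2.94 (-5.29 to -1.25) from 30 and 3 UMIs. The other lower members were Ifi211, with a log2 ratio of -1.77, and Trim30a, with -1.31. Ifi211, Trim30a and the Ifit and Gbp genes have close relatives, so reads could be shared out among copies.

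Among interferon-gamma response genes the guanylate-binding proteins, which attack vacuoles and cytosolic microbes, were lower: Gbp5 was at 180 and 77.4 CPM (-1.22, -1.99 to -0.51), Gbp4 at 221 and 109 CPM, Gbp3 at 83.5 and 38.7 CPM, and Gbp7 at 72.7 and 31.7 CPM. The related GTPase Iigp1 was at 94.2 CPM in the control and had 1 UMI in the treated library, a log2 ratio of -4.74 with the wide interval of -10.09 to -2.17. Gm4951, another gene of that family, was at 175 CPM from 65 UMIs in 13 of 24 control barcodes and had 0 UMIs in the treated ones, at least 16.6-fold lower by a floor of 3 UMIs. Not every gene of the response was lower. The transcription factor Irf1 was at 188 and 201 CPM and the checkpoint ligand Cd274 (PD-L1) at 1489 and 1727 CPM. Irf1 and Cd274 thus stayed under 2-fold while the 16 genes above did not. Macrophage barcodes were also lower in the treated library for Cxcl9 (1056 and 352 CPM), Isg15 (639 and 299 CPM), Ifih1 (738 and 180 CPM) and Gbp5 (179 and 84.5 CPM). Whether the difference is particular to mature dendritic cells was not tested.

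The same difference was seen per cell. The summed type I genes had a median of 3489 CPM per control mature barcode (876 to 11972) and 1965 CPM per treated one (212 to 4789), and 4 of 26 treated barcodes lay above the control median. The interferon-gamma genes had medians of 6511 CPM (1615 to 18403) and 4435 CPM (2096 to 10804), with 3 of 26 above. In cDC2 the type I medians were 3012 and 1998 CPM with 8 of 22 treated barcodes above the control median, and the interferon-gamma medians were 3736 and 2880 CPM with 7 of 22 above. In cDC1 the type I medians ran the other way, 1450 and 2383 CPM, with 5 of 7 treated barcodes above, and the interferon-gamma medians were 3665 and 2781 CPM, with 2 of 7 above. Treated mature barcodes were also shallower than control ones, at a median of 9646 against 13478 UMIs. The part of depth in these medians was not tested beyond the thinning above.

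**Figure D3:**
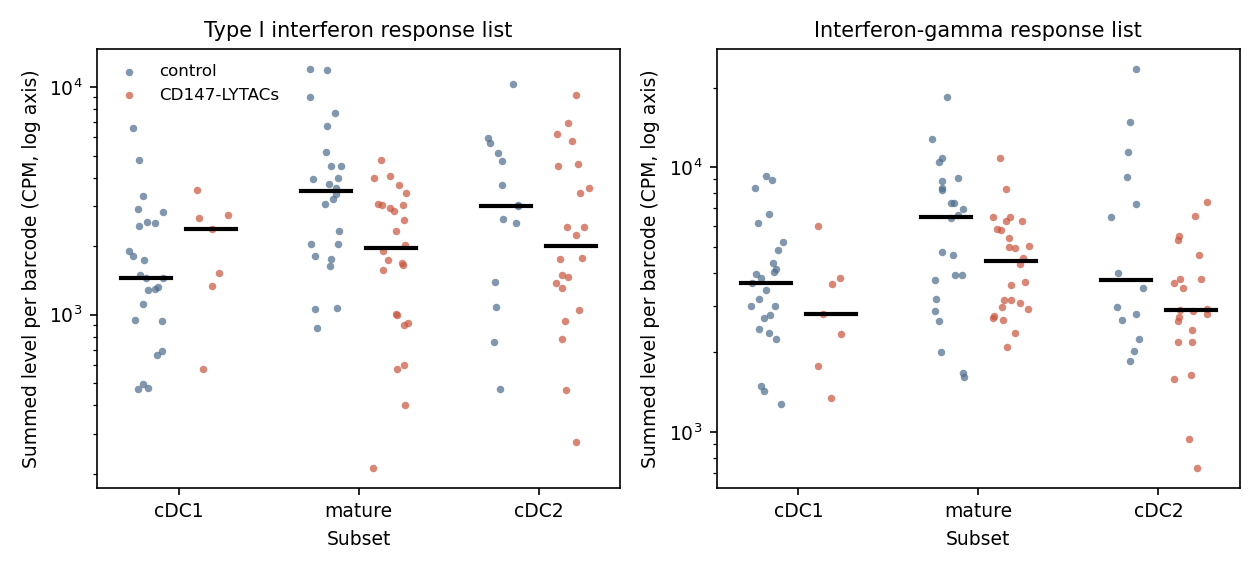
Summed CPM of the type I interferon and interferon-gamma response lists per barcode (vertical axis), 1 point for each dendritic barcode by subset and library, with the median as a line. In mature barcodes 4 of 26 treated points lie above the control median for type I genes and 3 of 26 for interferon-gamma genes.

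Promoters of 3 of these genes are shown for a short element that most of the lower genes hold. The interferon-stimulated response element, a promoter sequence of interferon-induced genes, was searched as 2 copies of TTTC with any 2 bases between them, on both strands, with overlapping matches counted, from 250 bases before to 50 after each gene start in RefSeq promoters of GRCm38.p6. It was present for 6 of the 8 type I genes lower in mature barcodes (75.0%), for 4 of the 5 interferon-gamma genes among the 8 that had a window (80.0%), and for 16 of 26 genes of the whole type I list (61.5%). It was present for 2 of 22 maturation genes (9.09%) and for 1079 of 27025 genes overall (3.99%). Capitals mark the matches in 3 of the windows below, each written 5′ to 3′ on the gene's strand.
Ifit1, chr19:34640639-34640938, plus strand: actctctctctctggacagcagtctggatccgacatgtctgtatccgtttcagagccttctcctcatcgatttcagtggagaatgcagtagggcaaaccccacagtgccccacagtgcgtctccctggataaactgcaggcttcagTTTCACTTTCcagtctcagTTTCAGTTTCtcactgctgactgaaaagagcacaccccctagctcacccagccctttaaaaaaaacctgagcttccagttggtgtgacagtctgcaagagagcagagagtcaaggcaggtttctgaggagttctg
Isg15, chr4:156200769-156201068, minus strand: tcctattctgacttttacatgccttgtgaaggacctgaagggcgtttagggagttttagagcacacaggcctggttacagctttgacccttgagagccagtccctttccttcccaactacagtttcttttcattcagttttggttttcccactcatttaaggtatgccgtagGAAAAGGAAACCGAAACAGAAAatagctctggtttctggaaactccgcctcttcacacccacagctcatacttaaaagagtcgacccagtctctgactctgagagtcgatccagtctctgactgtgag
Rsad2, chr12:26456403-26456702, minus strand: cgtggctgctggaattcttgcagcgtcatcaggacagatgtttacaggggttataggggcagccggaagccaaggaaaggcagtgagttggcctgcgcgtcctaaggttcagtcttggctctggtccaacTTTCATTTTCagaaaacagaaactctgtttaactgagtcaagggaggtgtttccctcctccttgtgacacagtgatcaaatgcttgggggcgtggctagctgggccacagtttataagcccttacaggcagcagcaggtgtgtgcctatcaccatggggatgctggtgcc
In Ifit1 matches start at -104 and -85 from the gene start, in Rsad2 a match starts at -120, and in Isg15 3 overlapping matches on the opposite strand start at -78, -72 and -66. No match was found in the windows of Oasl1, Ifit2 and Cxcl9. A match is a description of letters, not a site or a cause, and a window without one says nothing about the factor.

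Maturation genes leaned the other way. Of 28 in the files that the gates did not use 24 reached the minimum in mature barcodes, 5 were higher in the treated library and 0 lower, against 4.06% of all genes tested that were higher, and the median over 25 members was 0.33. The Rab regulator Tbc1d4 (ENSMUSG00000033083) was at 463 CPM (396 to 538) and 1291 CPM (1162 to 1430), in 14 of 24 and 20 of 26 barcodes. The melanosome transport gene Mreg was at 129 CPM (95.3 to 171) and 486 CPM (408 to 574), in 10 of 24 and 20 of 26 barcodes. Il4i1, whose product uses up phenylalanine and restrains T cells, was at 170 CPM (130 to 217) and 429 CPM (356 to 512), in 8 of 24 and 20 of 26. After thinning Il4i1 was found in 6 of 24 and 18 of 25 barcodes, Mreg in 5 and 16, and Tbc1d4 in 11 and 16. More of the thinned treated barcodes thus carried a transcript of each of these 3 genes. The members were still chosen by UMI counts before thinning, and treated barcodes were shallower. At least 8 UMIs of the mature gate stood in 15 of 24 control and 20 of 26 treated mature barcodes. The part of the gate in the higher maturation genes was not tested. T cell barcodes gave 0.70% and 0.58% for Il4i1 and 0.89% and 2.82% for Mreg. Cacnb3 was at 83.5 and 204 CPM and the apolipoprotein L family gene Apol7c at 29.6 and 66.8 CPM.

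The core migration and costimulation genes stayed under 2-fold. Ccr7 was at 2205 CPM (2056 to 2361) and 2769 CPM (2579 to 2969), the costimulatory ligand Cd80 at 560 and 683 CPM, and Cd86 at 767 and 777 CPM. The receptor Cd40 was at 215 and 257 CPM, and Ccl17 at 1311 and 770 CPM. Per barcode, the summed maturation list had a median of 13381 CPM in the control and 16576 CPM in the treated library, with 18 of 26 treated barcodes above the control median.

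**Figure D4:**
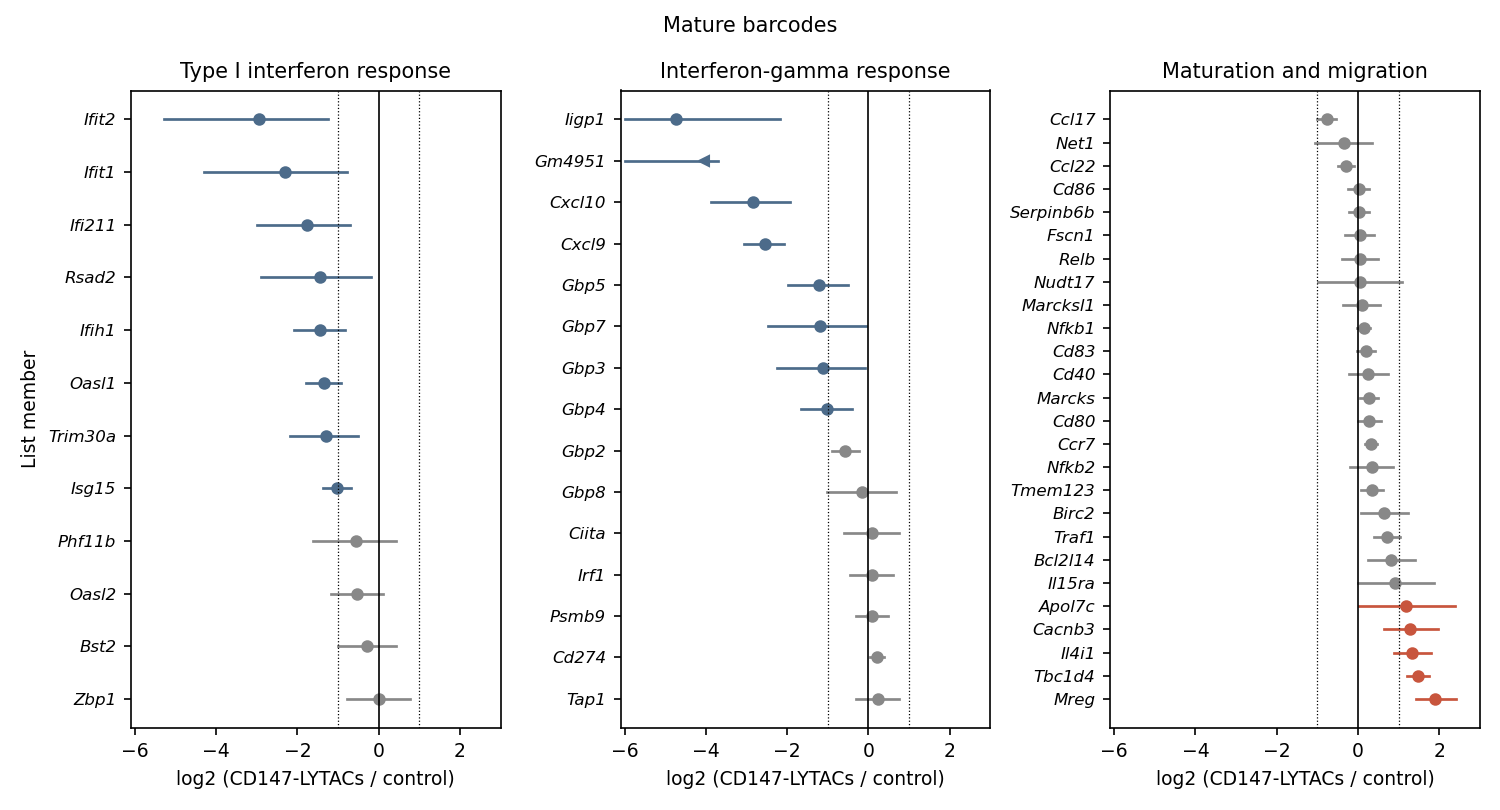
Log2 ratio of treated over control (horizontal axis) in mature barcodes for members of the interferon and maturation lists that reached the count minimum and are reported here, with 95% intervals, dotted lines at 2-fold, and a triangle where the value is a bound. Type I and interferon-gamma genes lie mostly left of 0, down to the bound for Gm4951, and Mreg at 1.91 lies farthest right among maturation genes.

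Of 15 regulatory molecules 9 reached the minimum in mature barcodes, with 1 higher and 2 lower, beside 4.06% and 6.8% of all genes tested. Cd200, an inhibitory ligand for myeloid cells, was at 64.6 and 211 CPM, and the receptor Havcr2 (TIM-3) at 248 and 116 CPM. The second lower member was Aldh1a2, which makes retinoic acid, at 705 and 35.2 CPM, but 98.5% of its control UMIs came from 1 barcode and it is not past the fold without it. Pdcd1lg2 (PD-L2) was at 573 and 454 CPM. Other genes with the strongest differences included 2 receptors of the TNF family. Tnfrsf9 (4-1BB) was at 43.1 CPM in 7 of 24 control and 232 CPM in 12 of 26 treated barcodes. Tnfrsf4 (OX40) went from 2 UMIs (5.38 CPM) to 36 UMIs in 6 barcodes (127 CPM), a ratio of 23.5-fold with a log2 interval of 2.60 to 7.66. T cells express both, with Tnfrsf9 at 461 and 528 CPM and Tnfrsf4 at 148 and 161 CPM in T cell barcodes. The summed T cell markers of mature barcodes were 29.6 and 70.4 CPM. Without the 2 treated barcodes with T cell receptor transcripts they were 29.6 and 60.1 CPM, and the log2 ratios of Tnfrsf9 and Tnfrsf4 were 2.46 and 4.65, beside 2.43 and 4.56 with them. The calcium-binding protein S100a4 was at 323 and 1108 CPM, in 15 of 24 and 21 of 26 barcodes.

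Some genes for sensing and uptake were lower in treated mature barcodes. Of 22 pattern recognition genes 8 reached the minimum and 3 were lower, 1 of them only with its top barcode, beside 6.8% of all genes tested, or 5.35% that held without the top barcode. The 2 that held were Ifih1, also counted among the lower type I interferon genes above, and the lectin Clec4n (Dectin-2). Clec4n was at 337 and 102 CPM, in 16 of 24 and 9 of 26 barcodes. Of 20 uptake genes 9 reached the minimum, with 1 higher and 3 lower, beside 4.06% and 6.8% of all genes, and 2 of the lower ones and 0 of the higher ones held without the top barcode. The scavenger receptor Cd36 was at 210 CPM in 13 of 24 control barcodes and 21.1 CPM in 4 of 26 treated ones, and the Fc receptor Fcgr3 at 118 and 42.2 CPM. Lyz2 was at 506 CPM (436 to 584) and 66.8 CPM (40.2 to 104), in 16 of 24 and 7 of 26 barcodes. At equal depth Lyz2 was found in 12 of 24 and 3 of 25 barcodes, the last share being close to the 10.4% of treated T cell barcodes, against 3.37% in the control. Cd36 was found in 8 of 24 and 2 of 25, beside 0.48% and 2.98% of T cell barcodes. Thbs1, a matrix protein, was at 245 CPM in 6 control barcodes and had 2 UMIs in 1 treated barcode, a ratio of -5.12 (-8.19 to -3.23). The itaconate enzyme Acod1 was at 167 and 17.6 CPM, the decoy receptor Il1r2 at 843 and 383 CPM, and the neutrophil attractant Cxcl2 at 2423 and 1013 CPM. Lyz2, Thbs1, Acod1 and Cxcl2 are also strongly expressed by macrophages, at 4376, 971, 649 and 3549 CPM in control macrophage barcodes. The summed macrophage markers in mature barcodes, which include the C1q genes limited by the gate, were 170 CPM in the control and 127 CPM in the treated library. Acod1 and Il1r2 are the 2 lower members of the neutrophil marker list, which summed to 1026 and 426 CPM. Of the 12 neutrophil markers 4 had UMIs in control mature barcodes: Il1r2 313, Acod1 62, Slpi 5 and Csf3r 1. Treated mature barcodes held 109, 5, 3 and 0 UMIs of these genes, with 3 of S100a9 and 1 of S100a8. The part of macrophage transcripts in these differences was not tested.

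The treated mature barcodes also held less of some cDC1 genes. Of 17 cDC1 identity genes that the gates did not use 10 reached the minimum. Lower were 3 and higher 1, beside 6.8% and 4.06% of all genes tested. Ppt1 was at 88.8 and 10.6 CPM (33 and 3 UMIs), Naaa at 129 and 21.1 CPM, and the integrin Itgae (CD103) at 124 and 45.7 CPM. The transcription factor Batf3, needed for cDC1 to develop, went the other way at 43.1 and 91.5 CPM. In 5 control and 2 treated mature barcodes 1 UMI of the cDC1 gate genes was present, 1 short of that gate. Of 20 hypoxia response genes 10 reached the minimum, with 4 lower and 1 higher, beside 6.8% and 4.06% of all genes tested. The oxygen-regulated transcription factor Hif1a was at 377 and 165 CPM, in 22 of 24 and 18 of 26 barcodes. The angiogenic factor Vegfa was at 140 and 38.7 CPM, the collagen hydroxylase P4ha1 at 78.1 and 24.6 CPM, and the disulfide oxidase Ero1l at 88.8 and 17.6 CPM. Anxa2, an annexin, was the higher one at 261 and 640 CPM.

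In cDC2 the cytokine genes Ccl4, Tnf and Cxcl2 were higher and the interferon-induced chemokines Cxcl9 and Cxcl10 lower in the treated library. Of 28 cytokine and chemokine genes 13 reached the minimum, 3 were higher and 2 lower, against 7.27% and 4.54% of all genes tested. The chemokine Ccl4 was at 415 CPM (328 to 519) in 3 of 14 control barcodes and 1385 CPM (1236 to 1547) in 15 of 22 treated ones. Tnf was at 108 and 274 CPM, and Cxcl2 at 507 and 1659 CPM with 53.5% of the treated UMIs in 1 barcode. Il1b was at 1768 and 2858 CPM, under 2-fold. Cd14, the endotoxin co-receptor, was at 64.7 CPM (33.4 to 113) in 3 of 14 and 397 CPM (319 to 488) in 14 of 22 barcodes. At equal depth, with 1 shallower treated cDC2 barcode left out, Cd14 was found in 3 of 14 and 9 of 21 and Ccl4 in 3 of 14 and 13 of 21 barcodes. Both were also found more often in thinned T cell barcodes of the treated library, Cd14 in 1.49% and 12.3% and Ccl4, which T cells express themselves, in 21.8% and 37.0%, and in hepatoma barcodes Ccl4 was found in 0.42% and 3.62%. The part of free RNA in these 2 genes was not tested. The cytokine signalling inhibitor Socs3 was at 135 and 309 CPM, the lipid droplet protein Hilpda at 151 and 410 CPM, the growth factor Pgf at 16.2 and 247 CPM, and Anxa2 at 194 and 481 CPM. Several of these genes are also those of other myeloid cells. The summed macrophage markers in cDC2, with the C1q genes limited by the gate, were 226 and 256 CPM in the control and treated library. The summed monocyte markers were 1698 and 1517 CPM. The summed neutrophil markers were 857 and 1275 CPM, with 15 of 22 treated barcodes above the control median. Barcodes of neutrophils numbered 74 and 365, and in them Ccl4 was at 6090 and 13689 CPM, Cxcl2 at 29856 and 51411 CPM and Cd14 at 1551 and 3755 CPM. Without the 1 treated cDC2 barcode with neutrophil transcripts the neutrophil markers were 857 and 574 CPM, and the log2 ratios were 1.57 for Ccl4, 1.26 for Cxcl2 and 2.51 for Cd14, beside 1.74, 1.71 and 2.62 with it.

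Cxcl9 in cDC2 was at 701 CPM (586 to 832) in 7 of 14 control barcodes and 128 CPM (85.7 to 184) in 4 of 22 treated ones, with 82.8% of the treated UMIs from 1 barcode. Cxcl10 was at 501 CPM in 8 of 14 and 128 CPM in 10 of 22 barcodes. Gbp4 was at 221 CPM from 41 UMIs and 13.2 CPM from 3 UMIs (log2 ratio -4.06, -6.40 to -2.41). Iigp1 was at 156 CPM and 1 UMI. These were the 4 interferon-gamma response genes lower among 14 that reached the minimum, and 0 were higher, beside 4.54% and 7.27% of all genes tested. The list's median over 22 members was -0.96 beside 0.01 over all genes. Of the type I list 12 reached the minimum, and 2 were lower and 0 higher, beside the same shares of all genes. Oasl1 was at 253 and 75.0 CPM and Ifi211 at 146 and 61.8 CPM, while Isg15 was at 383 and 300 CPM and not past the fold. The list's median was -0.43.

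Of 23 immediate-early and stress genes that reached the minimum in cDC2 8 were lower and 0 higher, and 6 of the 8 held without the top barcode, beside 4.54% of all genes that were lower and 3.27% that held. The heat shock genes Hspa1a and Hspa1b, near-identical copies, were at 819 and 66.2 CPM and at 625 and 61.8 CPM, with 57.2% and 50.9% of the control UMIs in 1 barcode. The chaperone Hsph1 was at 334 and 61.8 CPM, with 72.6% of the control UMIs in 1 barcode. The AP-1 subunit Fos was at 615 and 304 CPM, the growth inhibitor Btg2 at 512 CPM in 13 of 14 and 176 CPM in 14 of 22 barcodes, and the quiescence factor Klf2 at 221 and 48.5 CPM. Of 7 proliferation genes that reached the minimum 3 were lower, beside the same 4.54%, among them Top2a at 237 and 22.1 CPM and Stmn1 at 194 and 26.5 CPM. The proliferation median of -2.10 over 16 members shrank to -0.41 after thinning.

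The plasmacytoid genes of the cDC2 barcodes rested on few cells. Siglech was at 102 CPM from 1 control barcode and 212 CPM from 3 treated ones, the peptidase Klk1 at 5.39 and 194 CPM, the transcription factor Spib at 10.8 and 172 CPM, and the gut-homing receptor Ccr9 at 75.5 and 322 CPM. With the Siglech barcodes in, 5 of the 10 plasmacytoid markers were higher and 0 lower, beside 7.27% and 4.54% of all genes tested. Without them 0 were higher or lower, their sum was 542 and 552 CPM, Klk1 and Spib had 0 UMIs in both libraries, and Ccr9 had 0 and 4. Ly6c2, at 108 and 260 CPM, turned from a log2 ratio of 1.27 to -3.18 without them. The neutrophil gene Lcn2, at 0 and 366 CPM, came entirely from 1 treated barcode. Of the cDC2 identity genes that the gates did not use 7 reached the minimum, and 1, Cd209d, was higher (27.0 and 150 CPM), beside the same 7.27% of all genes. Sirpa was at 178 and 159 CPM and the transcription factor Irf4 at 64.7 and 48.5 CPM.

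The 7 treated cDC1 barcodes give the least firm values. Of 17 cDC1 identity genes that the gates did not use 11 reached the minimum, 4 were lower and 0 higher in the treated library, against 5.96% of all genes tested that were lower. Cadm1 (ENSMUSG00000032076) was at 950 CPM (863 to 1042) in 16 of 25 control barcodes and 327 CPM (227 to 457) in 4 of 7 treated ones, a log2 ratio of -1.54 that was -0.81 with a mean over cells. Wdfy4 was at 943 CPM in 23 of 25 and 462 CPM in 6 of 7 barcodes (-1.03, and -0.91 without the Siglech barcodes). The small GTPase Rab7b was at 296 and 106 CPM, and the inhibitory receptor Btla at 202 and 77.0 CPM. Other members stayed under 2-fold: Naaa was at 735 and 712 CPM, Ppt1 at 604 and 414 CPM, and Irf8, the master transcription factor of the subset, at 1197 and 934 CPM with 71.1% of the treated UMIs in 1 barcode. The identity genes therefore did not all differ alike. Whether the barcode with most of the Irf8 was the treated cDC1 barcode with Siglech was not tested. The control cDC1 barcodes were also deeper, at a median of 18197 against 13493 UMIs.

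Of the interferon-gamma list 15 reached the minimum, with 6 lower and 2 higher, beside 5.96% and 5.68% of all genes. Without the top barcode 4 were lower and 0 higher, beside 4.18% and 1.56%. Cxcl9 was at 466 CPM in 17 of 25 and 231 CPM in 5 of 7 barcodes (log2 ratio -1.01, and under 2-fold in 3 alternatives). Irf1 was at 232 and 96.2 CPM, Gbp5 at 85.9 and 19.3 CPM from 40 and 2 UMIs, and the protease inhibitor Serpina3g at 178 and 77.0 CPM. Isg15 of the type I list (103 and 241 CPM) and Cxcl10 of the interferon-gamma list (53.7 and 135 CPM) were higher, but the treated UMIs came to 76.0% and 92.9% from 1 barcode and neither held without it. The nuclear receptor coactivator Ncoa7 was at 466 CPM in 18 of 25 and 57.7 CPM in 5 of 7 barcodes. Specc1 was at 176 CPM from 82 control UMIs and had 0 in the treated cells, at least 6.10-fold lower. The death regulator Bcl2l14 was at 206 CPM from 96 UMIs and 19.3 CPM from 2. The prostaglandin enzyme Ptgs2 was at 32.2 and 452 CPM and the transcription factor Zeb2 at 85.9 and 760 CPM, with 74.5% and 82.3% of treated UMIs in 1 barcode. Whether that barcode was the one with Siglech was not tested for either gene. Of 9 proliferation genes that reached the minimum 5 were higher, beside the same 5.68%, among them Top2a at 135 and 347 CPM and Mki67 at 98.8 and 260 CPM. Only the centromere histone Cenpa, at 51.6 CPM in 9 of 25 and 221 CPM in 5 of 7 barcodes, held without the top barcode, and the median of 1.49 became 0.77 after thinning.

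With each subset given equal weight, so that the mix of subsets could not move the values, 208 of 3587 genes (5.8%) were past the fold, 104 (2.9%) higher and 104 (2.9%) lower in the treated library. Cxcl9 was among the lower ones at 669 and 168 CPM (3.99-fold, with a log2 interval of -2.34 to -1.65), and Ifit2 was at 57.8 and 7.93 CPM. Cxcl9 was past the fold in each of the 3 subsets as well.

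Antigen presentation genes stayed under 2-fold with few exceptions. Of all genes tested 10.9% in mature, 11.8% in cDC2 and 11.6% in cDC1 barcodes were past the fold in either direction. Of 22 class I and cross-presentation genes that reached the minimum in mature and 20 in cDC2 barcodes 0 were past the fold, and in cDC1 1 of 20 was higher and 1, the class I transactivator Nlrc5, lower (148 and 57.7 CPM). The class I heavy chain H2-K1 was at 1534 CPM (1411 to 1666) and 1456 CPM (1319 to 1604) in mature barcodes, and the peptide pump Tap1 at 180 and 211 CPM. Of the class II genes that reached the minimum and that the gates did not use, 0 of 9 in mature, 0 of 9 in cDC2 and 1 of 11 in cDC1 were past the fold. The latter was the ubiquitin ligase March1, which removes class II from the surface, at 146 and 38.5 CPM from 68 and 4 UMIs.

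Transcripts of the agent's target were fewer in dendritic than in hepatoma barcodes. Bsg (ENSMUSG00000023175) was at 90.2 CPM (65.0 to 122) and 77.0 CPM (33.2 to 152) in cDC1, 102 CPM (72.4 to 140) and 102 CPM (68.3 to 147) in mature, and 97.0 CPM (57.5 to 153) and 141 CPM (96.6 to 199) in cDC2 barcodes. It was at 1011 and 1015 CPM in hepatoma barcodes. The intervals of the 2 libraries overlapped in each subset, and mRNA does not show the protein, which is what the agent degrades. Of the 17 genes of lactate transport and use, Bsg among them, the 12, 11 and 11 with at least 10 UMIs had median log2 ratios of 0.01, -0.14 and 0.02 in cDC1, mature and cDC2. Lactate dehydrogenase Ldha was at 464 and 462, 272 and 204, and 264 and 349 CPM in the same order. The partner protein Emb, which like Bsg escorts a lactate transporter, was lower in mature barcodes at 127 and 56.3 CPM. The transporter Slc16a3 was higher in cDC1 at 49.4 and 135 CPM, not without its top barcode, and at 129 and 73.9 CPM in mature. Of 11 glycolysis genes that reached the minimum in mature barcodes 1, the hexokinase Hk1, was lower at 70.0 and 28.1 CPM, beside 6.8% of all genes tested.

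**Figure D5:**
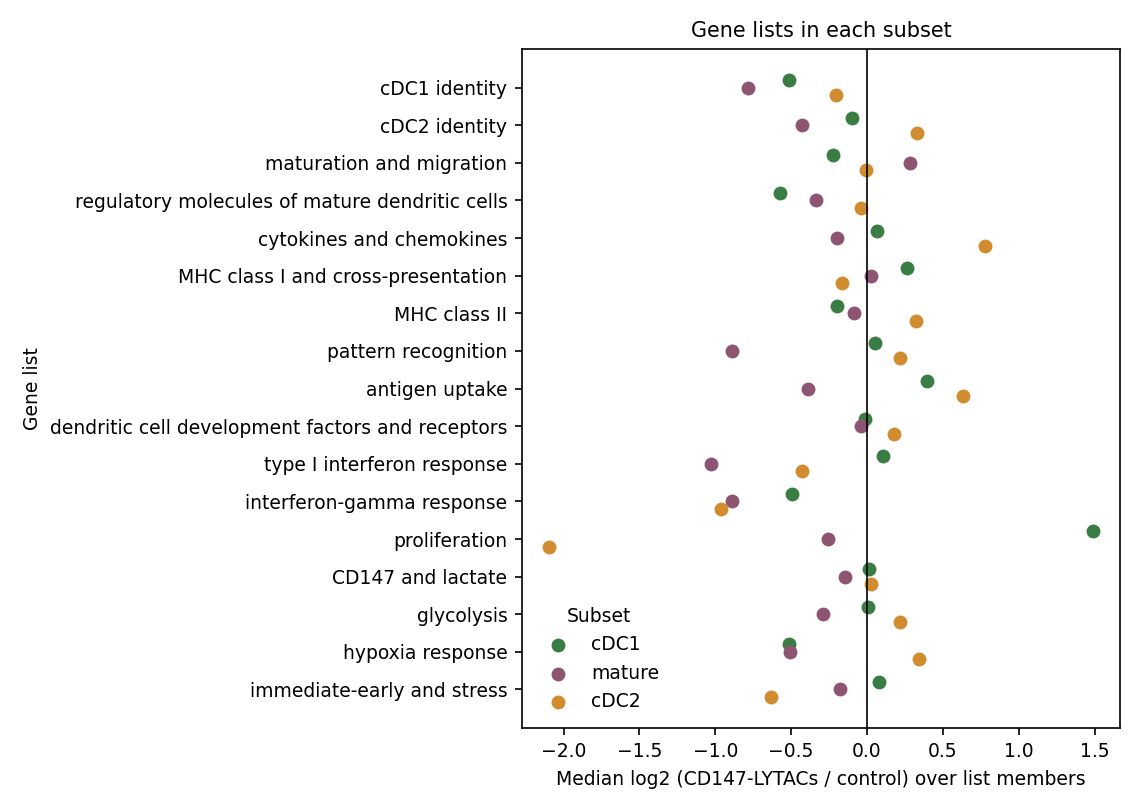
Median log2 ratio of treated over control (horizontal axis) for each gene list in cDC1, mature and cDC2 barcodes, over members with at least 10 UMIs. The type I interferon list is at -1.03 in mature and 0.10 in cDC1, the interferon-gamma list is below 0 in the 3 subsets, and the class I list is at 0.26, 0.03 and -0.17 in cDC1, mature and cDC2.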

How the data were processed

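Single-cell transcripts were measured in 2 droplet libraries. What the authors deposited are unnormalised UMI counts for each gene in each barcode. The file headers name Cell Ranger 7.1.0 while the submitters' processing notes name Cell Ranger 3.0.2 and mm10. Which gene annotation was used is not given. Counts were read with Python 3.11.15, numpy 2.4.6, scipy 1.17.1 and pandas 2.3.3. Barcodes were filtered and gated as the report states, and the members and gene lists were chosen with earlier results of these data known. UMIs were summed per library and subset and divided by the subset's total (CPM). Intervals of single sums are exact Poisson, of shares Clopper-Pearson, and of ratios exact conditional binomial, all at 95%, with the delta method where subsets were compared or weighted equally. A sum of 0 was set to a floor of 3 UMIs per library for a bound. Named genes were the 8 highest and 8 lowest per subset by the interval bound nearest 0, the 12 highest per subset against the others, and list members. Mitochondrial, ribosomal, haemoglobin, sex-linked, immunoglobulin and T cell receptor genes, gate genes, and genes at least 10 times higher in another barcode class were not named. Some genes are not reported here by name, while counts and medians over lists and over all genes include them. Doublets were kept. Scrublet in scanpy 1.11.5 marked 1 control barcode and 134 treated ones by its automatic threshold, which did not work in the control, so the 402 and 535 highest scores were removed as an alternative. Other alternatives changed the barcode limits, the gates and their order, the scale, the count minimum and the fold, thinned cells to 4000 UMIs, or removed barcodes with T cell receptor transcripts. Leaving out the top barcode, Siglech barcodes or neutrophil-transcript barcodes was chosen after seeing the data. The script was tested on simulated counts. Of 32285 genes in the files, Mx1, Mx2, Cxcl11, Clec7a, Mb21d1 and Cxx1b were not found by these symbols, and Ccl19 and Aldoa, whose symbols occur more than once, were not used. Promoters were taken from RefSeq, and figures drawn with matplotlib 3.10.9.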

Additional observations from a re-analysis of the deposited data

Results flagged for a closer look

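Between libraries 52 genes were past 2-fold in opposite directions in different subsets, and for 21 of them this held without the top barcode, 6 of which are named or on a list. All ratios here are log2 ratios of treated over control. The difference between subsets was not tested for any of them, since each library is 1 sample. Ptgs2, the inducible prostaglandin enzyme, was higher in cDC1 (3.81) and cDC2 (1.20) and lower in mature barcodes (-2.30). Thbs1, a matrix protein, was lower in mature (-5.12) and higher in cDC2 barcodes (1.97). The chemokine Cxcl2 was higher in cDC1 (1.70) and cDC2 (1.71) and lower in mature barcodes (-1.26), and in cDC1 it was 1.60 and not past the fold without the top barcode. S100a4 was lower in cDC1 (-1.38) and higher in mature barcodes (1.78). In cDC1 it had 70 UMIs in 6 of 25 control and 6 UMIs in 2 of 7 treated barcodes. The myosin Myo1e was higher in cDC1 (3.31) and lower in mature barcodes (-1.20). Its treated cDC1 UMIs stood in 3 of 7 barcodes, with 83.9% of them in 1. Ccl4 was lower in cDC1 (-1.25) and higher in cDC2 barcodes (1.74), and in cDC1 it was -0.47 and not past the fold without the top barcode. Without it, Ccl4 was past the fold in opposite directions in mature and cDC2 barcodes, and with every barcode it was at -0.38 and not past the fold in mature ones.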

How the results depend on the processing

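No paired analysis was possible because each group is 1 library and the labels give no replicate numbers. Of the alternatives for shares, counts of genes and list medians, 514 gave values within the spread allowed and 30 did not. Gates: the share of immune barcodes was 0.898% in the control after thinning, and with class II barcodes as the denominator 5.22% and 4.22%. With the cDC2 rule before the mature rule the treated library had 25.5% mature and 61.8% cDC2 barcodes. With at least 4 UMIs for cDC2 the cDC2 share was 5.77% and 17.5% and the treated mature share 65.0%, and with at least 8 UMIs for mature the control mature share was 25.9%. Genes between libraries: after thinning 55, 114 and 106 genes were past the fold in cDC1, mature and cDC2, of which 31, 60 and 49 were so without it, and a minimum of 100 UMIs left 82, 75 and 61, with 92 at equal weight. Without a minimum there were 644, 668 and 665, with 760 at equal weight. At 1.5-fold there were 602 in mature, 477 in cDC2 and 574 at equal weight. Genes between subsets: at 4-fold 8, 25 and 5 genes were higher in cDC1, mature and cDC2 in both libraries, and after thinning 7, 38 and 20. The regulatory list's median in cDC1 became 0.18 after thinning. Fewer reads or genes enter when cells are thinned or minimums raised; for the other settings the cause was not tested. Of named and list genes 213 alternatives lost the call and 1404 kept it. Log2 ratios that changed sign were, in cDC1 without the top barcode, Cxcl10 (-0.69), Iigp1 (-1.07) and P4ha1 (-2.69), after thinning Isg15 (-0.41) and Cybb (-0.16), and without Siglech barcodes Iigp1 in cDC1 (-1.39) and Ly6c2 in cDC2 (-3.18). Depth limits the 7 treated cDC1 barcodes most: in them a gene with 0 UMIs may still stand at up to 35.5 CPM.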
